A study of Mus musculus with 12 samples.

Results

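The mRNAs of 10 mitochondrial chaperones and proteases were followed in FLMycER cells, named one by one as members of the mitochondrial unfolded protein response and found by symbol among the 21671 genes of the table. All 10 genes (Hspd1, Hspe1, Hspa9, Dnaja3, Trap1, Lonp1, Clpp, Clpx, Afg3l2 and Yme1l1) were present, and all passed the filter on low values together with 9745 genes in total. FLMycER cells are FL5.12, a prolymphocytic mouse line of BALB/c origin, carrying a retroviral vector from which MycER is expressed all the time. MycER is a chimera of Myc that becomes active upon binding of 4-hydroxytamoxifen (OHT), so that every group, controls included, carried the transgene beside the endogenous Myc gene. There were 4 groups of 3 libraries each. The first was left untreated and the second (OHT) was kept in 100 nM OHT for 72 h. The third (IACS) spent 24 h in 135 nM IACS-010759, which blocks complex I of the respiratory chain, and the last (OHT_IACS) was given OHT 48 h ahead of the inhibitor and throughout its 24 h. No group received OHT in cells without MycER, so that effects of OHT itself and of MycER cannot be told apart. Of 15 markers of B-cell progenitors and IL-3 dependent cells, 6 (Cd79a, Cd79b, Il3ra, Csf2rb, Csf2rb2 and Ptprc) had a mean RPKM of at least 1, while Pax5, Rag1, Dntt, Il7r and Kit were at 0 in every library. The erythroid genes Gata1, Klf1, Hbb-b1 and Epor were all above this level, with a summed RPKM between 35.7 and 45.7, and of the T-cell and myeloid markers Cd3g, Mpo and Lyz2 were.

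Most mitochondrial proteins are made in the cytosol, imported unfolded through the inner membrane, and folded in the matrix. HSPA9 (mitochondrial HSP70) pulls the chain in and holds it with the help of J proteins such as DNAJA3, HSPD1 and HSPE1 (HSP60 and HSP10) form the closed chamber in which it folds, and TRAP1 is the HSP90 of the organelle. Chains that fail are cut by the matrix proteases LONP1 and CLPP, the latter fed by the unfoldase CLPX, and in the inner membrane by AFG3L2, facing the matrix, and YME1L1, facing the intermembrane space. When unfolded chains pile up or respiration fails, nuclear genes for such proteins can be switched on, a programme known as the mitochondrial unfolded protein response, in which ATF5, ATF4 and DDIT3 act as transcription factors in mammalian cells.

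The values were reads on a gene divided by its length and by the library total (RPKM), scaled here so that the typical gene had the same level in each library. Libraries differed in depth, with totals from 10376530 to 14550158 reads and between 4198459 and 5760586 reads on genes. OHT replicates 1 and 3 and IACS replicate 3 were the shallowest, whereas the untreated libraries all held at least 13375674 reads. Reads on abundant genes did not follow the total, which is given below beside the members it touches. Since RPKM are shares of a library of bulk RNA, a change in the RNA of each cell and a change in the number of cells that express a gene cannot be told apart.

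The members ranged over about an order of magnitude in RPKM, which is per length and can be set side by side between genes. Hspd1 had the highest mean over the 12 libraries, at 79.7 RPKM (range 68.9 to 98.3), above 99.1% of the genes tested. Hspa9 followed at 71.1 (59.9 to 80.5) and Hspe1 at 56.2 (49.6 to 69.3). Lonp1 at 37.9 (30.9 to 44.0), Trap1 at 36.7 (31.7 to 42.7) and Clpp at 34.1 (29.9 to 41.2) formed a middle tier whose ranges overlapped. Yme1l1 stood at 18.1 (16.5 to 20.2), Dnaja3 at 17.1 (15.1 to 19.6), Clpx at 11.1 (9.81 to 12.6) and Afg3l2 at 9.18 (7.93 to 10.5), the last of these near the middle of all genes tested (above 50.4% of them). Of the 9 steps between neighbours in this order, the only ones where the ranges did not meet were those from Hspe1 down to Lonp1, from Clpp to Yme1l1 and from Dnaja3 to Clpx.

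**Figure D1:**
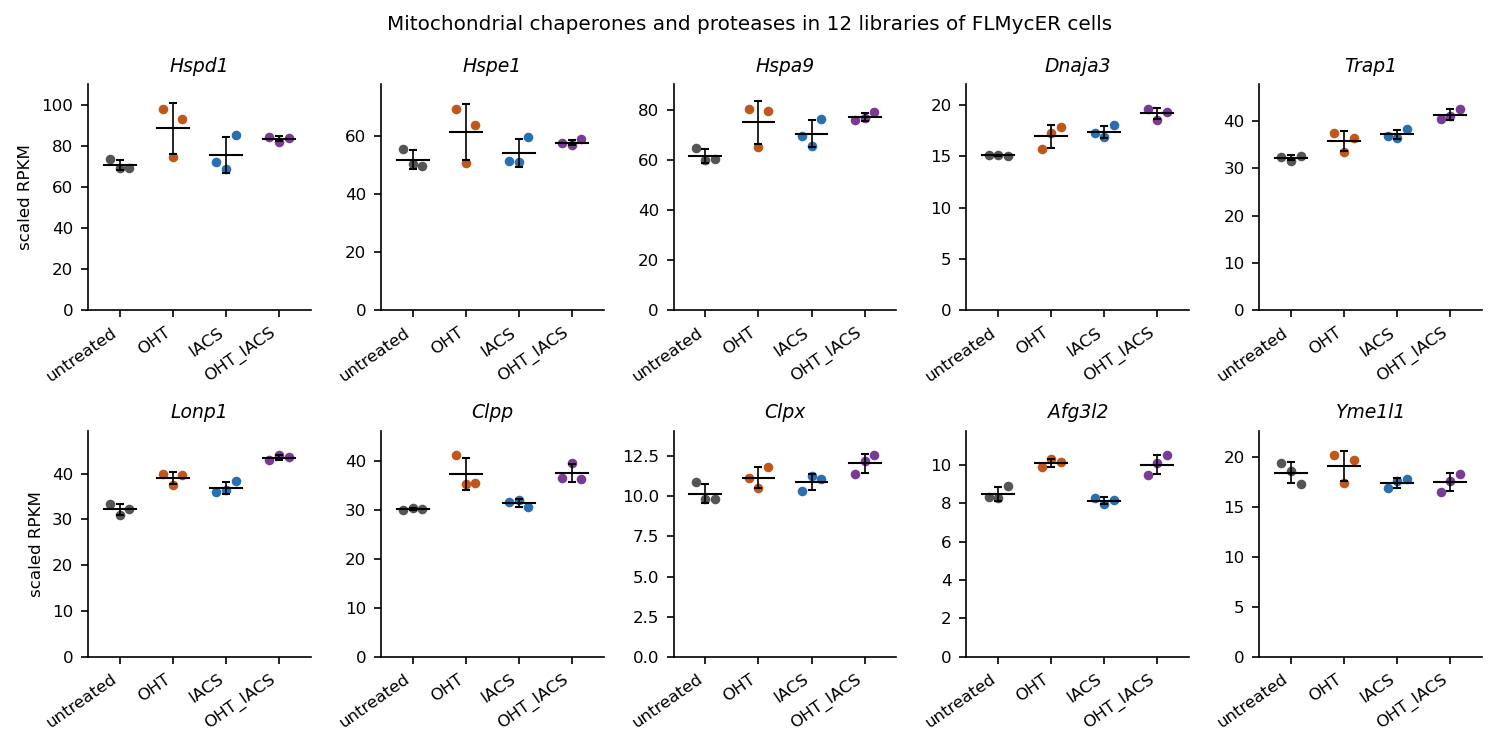
Level of each of the 10 mRNAs in scaled RPKM (vertical axes, each from 0) in the 12 libraries, grouped by condition. Points are libraries, horizontal lines group means and error bars the SD of 3 libraries; Lonp1 and Trap1 are highest in all 3 OHT_IACS libraries, Clpp and Afg3l2 are high in both groups with OHT, and Yme1l1 overlaps between all groups.

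Compared with untreated cells, 7 of the 10 members rose with OHT and none fell, by small amounts, where limma called 18.2% of all genes tested higher and 18.2% lower at an adjusted p under 0.05. The median log2 fold change of the members was 0.24, against 0.013 over all genes tested and 0.15 over the 764 genes with at least 0.5 reads per base, of which Hspd1, Hspe1 and Hspa9 are part. When the log2 library total entered as a covariate, 3 members (Lonp1, Clpp and Afg3l2) were called and the median was 0.065, and 3 were also called with only the compared groups in the fit or without untreated replicate 2, untreated replicate 3 or OHT replicate 3 (4 without OHT replicate 1). All 10 estimates were positive, and the groups did not overlap for 7 members, against 22.5% of all genes tested that were higher without overlap. Under complex I inhibition the response to OHT (OHT_IACS against IACS) had a median of 0.15, with 4 members called higher and none lower, where 12.3% of all genes were called higher and 14.2% lower. In that comparison 6 members were higher without overlap of the groups, against 20.1% of all genes.

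With the inhibitor IACS-010759, 3 members rose in nonprimed cells (Dnaja3, Trap1 and Lonp1) and none fell, where 8.15% of all genes were called higher and 7.74% lower, and the median of the members was 0.093. The groups did not overlap for 5 members, higher with IACS, against 19.9% of all genes. In OHT-primed cells (OHT_IACS against OHT) 3 members rose and none fell, where 11.9% of all genes were called higher and 11.8% lower, and these were again Dnaja3, Trap1 and Lonp1. They were also the 3 members whose groups did not overlap, against 17.8% of all genes, and the median of the members was 0.028. The comparisons of IACS with untreated cells and of OHT with untreated cells share their control libraries. Whether the response differed between primed and nonprimed cells was tested as an interaction, in which limma called 0 of the 10 members at an adjusted p under 0.05 and 0 at an unadjusted p under 0.05, where 0.144% of all genes were called higher (14), 0% lower, and 12.7% (1240) had an unadjusted p under 0.05. The interval of this difference ran from -0.47 to 0.14 for Hspd1, which takes in differences larger than either of its responses to IACS, and from -0.15 to 0.16 for Trap1, short of the 0.21 by which Trap1 rose with IACS.

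**Figure D2:**
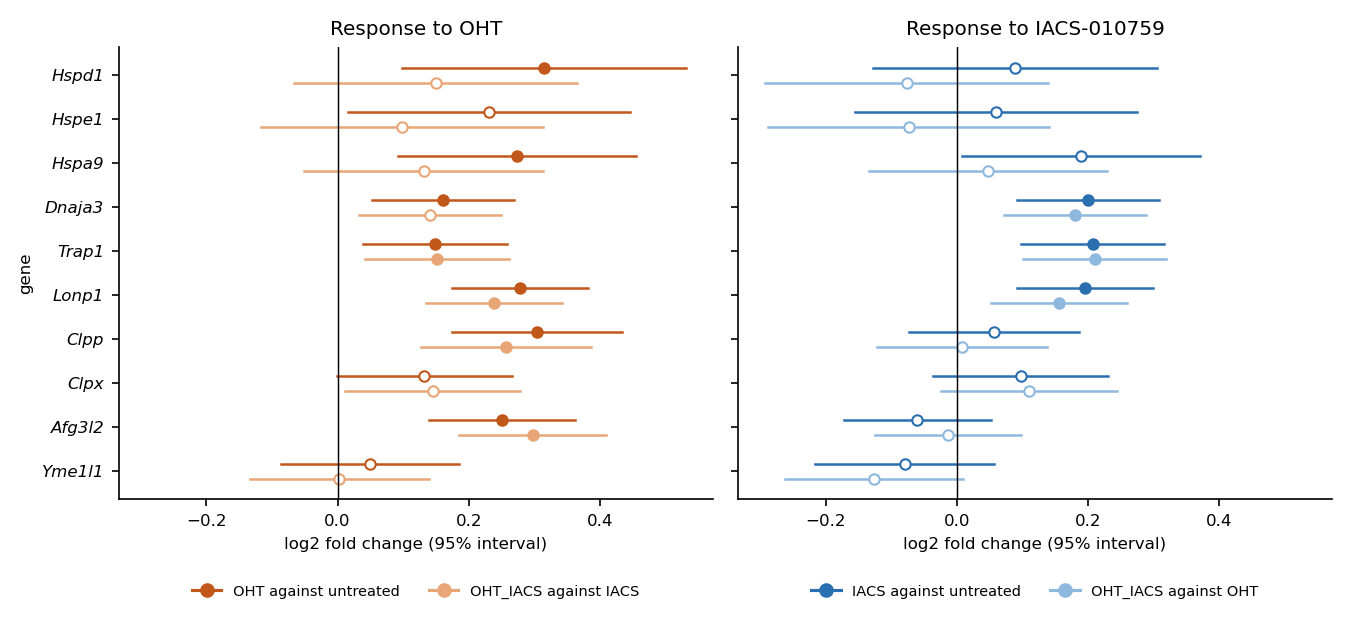
Log2 fold changes (horizontal axis) with 95% intervals for the 10 genes, on the left for OHT without and with inhibitor and on the right for IACS-010759 in nonprimed and OHT-primed cells. Filled points passed an adjusted p of 0.05 (limma, Benjamini-Hochberg); Clpp and Afg3l2 are filled only on the left, Lonp1 and Trap1 in all 4 comparisons.

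Hspd1 and Hspe1, the pair that builds the HSP60 and HSP10 folding chamber, lie head to head on mouse chromosome 1. GENCODE places Hspd1 at chr1:55077835-55088243 on the minus strand and Hspe1 at chr1:55088132-55091307 on the plus strand (GRCm38), so that their first exons share 112 bases on opposite strands. The libraries were made with a stranded kit, but whether the counting used the strand is not given in the sources used here, and reads in the shared stretch could then count for neither gene or for either. Pseudogenes are listed in RefSeq for Hspd1 (5), Hspe1 (7) and Hspa9 (1). None of them is among the genes with values here, and their part in the reads was not tested. RefSeq lists a pair of start sites for Hspd1, and the window around the upstream one (chr1:55088194-55088493, minus strand, GRCm38.p6) holds the E-box CACGTG, the letters that MYC and MAX dimers read, at position -80 relative to the start. The window of Hspe1 (chr1:55087898-55088197, plus strand) holds the letters GAANNTTC of a heat shock element at position -84, and the same bases lie in the window of the second Hspd1 start. The Hspd1 window shown lies downstream of the Hspe1 start, within the Hspe1 gene, and meets the Hspe1 window only at its edge, whereas that of the second Hspd1 start overlaps with most of it. Both are shown because they hold the matched letters, in capitals.

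Hspd1 promoter: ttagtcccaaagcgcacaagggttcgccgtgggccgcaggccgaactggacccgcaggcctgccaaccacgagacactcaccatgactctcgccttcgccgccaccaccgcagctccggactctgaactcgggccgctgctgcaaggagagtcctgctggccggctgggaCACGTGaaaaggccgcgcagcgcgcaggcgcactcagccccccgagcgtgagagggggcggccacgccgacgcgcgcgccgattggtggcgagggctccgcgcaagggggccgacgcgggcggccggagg

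Hspe1 promoter: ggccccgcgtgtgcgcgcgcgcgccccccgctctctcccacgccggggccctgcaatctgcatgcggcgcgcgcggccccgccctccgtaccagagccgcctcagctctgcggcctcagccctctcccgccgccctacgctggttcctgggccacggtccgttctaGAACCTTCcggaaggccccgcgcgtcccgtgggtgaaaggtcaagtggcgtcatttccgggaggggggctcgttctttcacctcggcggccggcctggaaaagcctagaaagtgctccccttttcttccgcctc

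Among 32851 promoter windows of the same length in the RefSeq table, 7.15% held CACGTG and 7.86% held GAANNTTC on either strand, and such a match is a description of the letters. Windows were given for 8 of the 10 members (9 windows in all). The E-box was found in those of Hspd1 and Lonp1, the heat shock letters only in the Hspd1 and Hspe1 windows just named, and the letters TGATGNAA of the element read by ATF4 with its partners in none, against 3.97% of all windows.

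Hspd1 stood at 73.9, 69.6 and 69.2 RPKM in the untreated libraries and at 98.3, 74.8 and 93.2 with OHT. With IACS it was at 72.5, 68.9 and 85.7, and with OHT_IACS at 84.5, 82.1 and 84.2. OHT replicate 2 lay just above the highest untreated library and the other OHT libraries well above, and IACS replicate 3 stood apart from the other IACS libraries. The log2 fold change with OHT was 0.31 (SE 0.10; limma, Benjamini-Hochberg adjusted p = 0.0256), and that with IACS 0.089 (adjusted p = 0.595). Hspe1 ran with it: 55.6, 50.2 and 49.6 RPKM in untreated cells, 69.3, 50.7 and 63.7 with OHT, 51.4, 51.1 and 59.7 with IACS and 57.5, 56.9 and 58.8 with OHT_IACS. Its OHT replicate 2 fell within the untreated range, and the difference of 0.23 (SE 0.10) did not pass the test (limma adjusted p = 0.0859). The ratio of Hspd1 to Hspe1 within a library was 1.37 ± 0.037 in untreated cells, 1.45 ± 0.031 with OHT, 1.40 ± 0.044 with IACS and 1.45 ± 0.019 with OHT_IACS (SD, n = 3 each), and the untreated and OHT libraries did not overlap in it.

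The depth of the libraries moved with these values. Reads on Hspd1 were nearly the same in every library, from 2180 to 2487, and so were those on Hspe1, from 500 to 563, although the totals differed. Within conditions, log2 reads rose with log2 library total with a slope of 0.21 for Hspd1 and 0.19 for Hspe1, where a slope of 1 is proportional and the median over 9676 genes was 1.22. The 764 genes tested with at least 0.5 reads per base shared this, with a median slope of 0.56 and a median log2 fold change with OHT of 0.15. Hspd1 held 0.99 reads per base, Hspa9 0.89 and Hspe1 0.70, and the other 7 members between 0.12 and 0.47. Once the log2 library total entered the fit as a covariate, the value for OHT was 0.056 for Hspd1 (limma adjusted p = 0.162) and -0.033 for Hspe1 (adjusted p = 0.583). Leaving out OHT replicate 1 gave 0.24 for Hspd1 (adjusted p = 0.0899) and leaving out OHT replicate 3 gave 0.27 (adjusted p = 0.0957), and the call was also lost without untreated replicate 2 (adjusted p = 0.0754) or untreated replicate 3 (adjusted p = 0.0827). Without OHT replicate 2, the deepest of its group, the change was 0.43 for Hspd1 and 0.36 for Hspe1, which then passed (limma adjusted p = 0.00232).

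**Figure D3:**
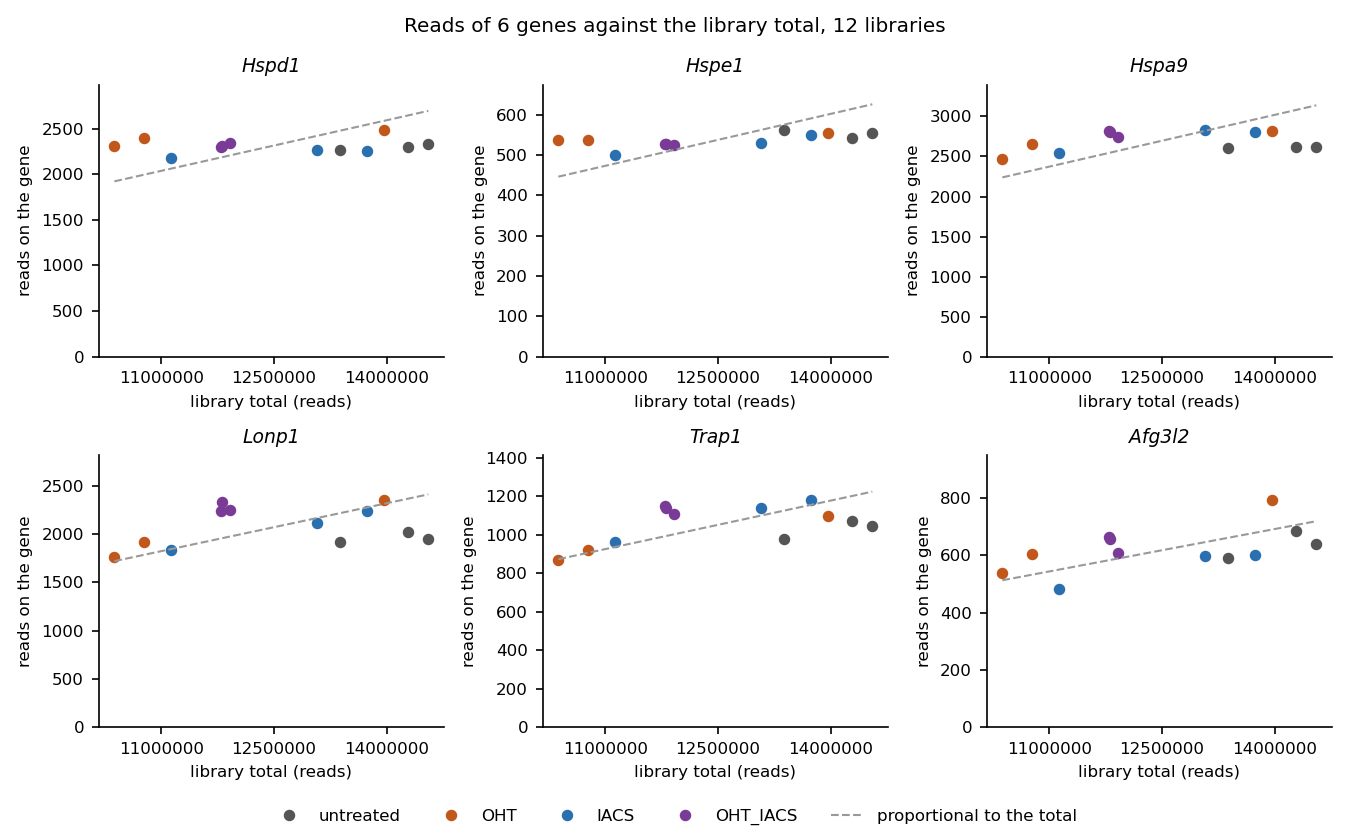
Reads on 6 of the genes (vertical axes, from 0) against the library total in reads (horizontal axes), with 1 point per library coloured by condition. The dashed line is proportional to the total; the points of Hspd1, Hspe1 and Hspa9 lie nearly level, with 2180 to 2487 reads on Hspd1, whereas those of Afg3l2 lie above the line in libraries with OHT and below it in the others.

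Hspa9 encodes the mitochondrial HSP70, which works both as import motor and as folding chaperone. Its levels were 65.0, 59.9 and 60.5 RPKM in untreated cells, 80.5, 65.1 and 79.4 with OHT, 69.4, 65.7 and 76.5 with IACS and 75.8, 76.6 and 79.0 with OHT_IACS. Every library of the 3 treated groups lay above every untreated one, by a narrow margin for OHT replicate 2. It rose with OHT by a log2 fold change of 0.27 (SE 0.084; limma adjusted p = 0.0221), and its value with IACS was 0.19 (interval 0.0078 to 0.37; adjusted p = 0.147). The slope of its reads on the library total was 0.40, and with the total as a covariate the OHT value was 0.069 (limma adjusted p = 0.099). The OHT call was also lost without OHT replicate 1 (adjusted p = 0.0715), OHT replicate 3 (0.0937), untreated replicate 2 (0.0774) or untreated replicate 3 (0.0751). The value with IACS passed with quantile normalization (0.13, limma adjusted p = 0.00516) and without OHT replicate 2 (0.19, adjusted p = 0.0345).

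Dnaja3, a J protein that delivers clients to mitochondrial HSP70, was among the steadiest of the members in untreated cells, at 15.1, 15.1 and 15.1 RPKM. It was at 15.7, 17.2 and 17.8 with OHT, 17.3, 16.8 and 18.0 with IACS and 19.6, 18.6 and 19.3 with OHT_IACS. All treated libraries were above the untreated ones, and the OHT_IACS libraries above all others. The log2 fold change with IACS was 0.20 in nonprimed cells (SE 0.050; limma adjusted p = 0.0168) and 0.18 in OHT-primed cells (SE 0.050; adjusted p = 0.0204). With OHT it was 0.16 (adjusted p = 0.0242), and under inhibitor 0.14, which missed the threshold (adjusted p = 0.0546). Its reads grew with the library total in near proportion (slope 1.14). The IACS call in nonprimed cells was lost without untreated replicate 1 (adjusted p = 0.0518), untreated replicate 3 (0.051) or IACS replicate 3 (0.0621), and that in primed cells without OHT replicate 1, OHT_IACS replicate 1 or OHT_IACS replicate 3 (at most 0.0809). The OHT call was lost without any untreated library, OHT replicate 2 or OHT replicate 3 (at most 0.11). GENCODE exons of Dnaja3 share up to 160 bases with Vasn on the same strand and up to 153 with Coro7 on the other, so that its reads are partly uncertain. A shorter overlap, of up to 54 bases, is that of Trap1 exons with Dnase1 on the opposite strand.

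Trap1, the mitochondrial HSP90, stood at 32.4, 31.7 and 32.7 RPKM in untreated cells, 37.5, 33.5 and 36.4 with OHT, 37.0, 36.5 and 38.3 with IACS and 40.4, 41.1 and 42.7 with OHT_IACS. The untreated libraries were below all others and the OHT_IACS libraries above all others. Trap1 rose with IACS by 0.21 on the log2 scale in nonprimed cells (SE 0.051; limma adjusted p = 0.0148) and also by 0.21 after OHT priming (SE 0.051; adjusted p = 0.0101), and the interaction was 0.0031 (interval -0.15 to 0.16). With OHT it rose by 0.15 without inhibitor (adjusted p = 0.0354) and by 0.15 with it (adjusted p = 0.0414). The OHT value without inhibitor was 0.062 with the library total as a covariate (limma adjusted p = 0.272), and that with inhibitor 0.12 (adjusted p = 0.0108). Both OHT calls were close to the threshold. The first was lost without any untreated library, OHT replicate 1, OHT replicate 3 or IACS replicate 1, with a highest adjusted p of 0.114. The second was lost on leaving out each library but IACS replicate 3, OHT replicate 1 and OHT replicate 2, with a highest adjusted p of 0.146. The call for IACS in nonprimed cells was lost without untreated replicate 2 (0.0597) or IACS replicate 3 (0.0537), and that in primed cells held without each library.

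Lonp1, the ATP-dependent protease that clears misfolded and oxidised proteins from the matrix, was the one member besides Trap1 that rose in all 4 comparisons. It was at 33.2, 30.9 and 32.3 RPKM in untreated cells, 39.8, 37.5 and 39.7 with OHT, 36.0, 36.3 and 38.3 with IACS and 42.9, 44.0 and 43.5 with OHT_IACS. The untreated libraries were the lowest and the OHT_IACS libraries the highest, without overlap, while the OHT and IACS libraries overlapped with each other. The log2 fold change with OHT was 0.28 (SE 0.048; limma adjusted p = 0.000605) and under inhibitor 0.24 (SE 0.048; adjusted p = 0.00253). The values for IACS were 0.20 in nonprimed (adjusted p = 0.0149) and 0.16 in OHT-primed cells (adjusted p = 0.0324), and the interaction was -0.040 (interval -0.19 to 0.11). With the library total as a covariate the 4 values were 0.21, 0.22, 0.15 and 0.16, and all passed (highest limma adjusted p = 0.00773). Both OHT calls held on leaving out each library, whereas the IACS call in nonprimed cells was lost without IACS replicate 3 (adjusted p = 0.0584) or untreated replicate 2 (0.0712), and that in primed cells without OHT replicate 3 (0.0601) or any OHT_IACS library (at most 0.0883).

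Lonp1 lies at chr17:56614297-56626887 on the minus strand (GENCODE, GRCm38). Its RefSeq promoter window (chr17:56626854-56627153, minus strand, GRCm38.p6) is shown because it is the second of the members' windows with the E-box CACGTG, here at position -36 and in capitals.

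Lonp1 promoter: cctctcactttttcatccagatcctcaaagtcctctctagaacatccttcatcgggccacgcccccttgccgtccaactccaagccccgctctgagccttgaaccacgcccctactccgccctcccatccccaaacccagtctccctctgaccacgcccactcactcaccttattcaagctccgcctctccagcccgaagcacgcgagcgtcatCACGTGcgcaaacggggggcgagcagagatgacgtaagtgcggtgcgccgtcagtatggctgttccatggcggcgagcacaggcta

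Clpp, the peptidase chamber of the ClpXP protease, and Clpx, the ring that unfolds its substrates, did not give the same picture. Clpp was at 29.9, 30.4 and 30.2 RPKM in untreated cells, 41.2, 35.4 and 35.6 with OHT, 31.6, 32.1 and 30.5 with IACS and 36.6, 39.7 and 36.3 with OHT_IACS. The 6 libraries with OHT were all above the 6 without it. Clpp rose with OHT by 0.30 (SE 0.060; limma adjusted p = 0.00157) and by 0.26 under inhibitor (SE 0.060; adjusted p = 0.00666), and its values for IACS were 0.056 (interval -0.073 to 0.19) and 0.0084 (interval -0.12 to 0.14) in nonprimed and primed cells. Clpx was at 10.9, 9.84 and 9.81 RPKM in untreated cells, 11.1, 10.5 and 11.8 with OHT, 10.3, 11.3 and 11.1 with IACS and 11.4, 12.2 and 12.6 with OHT_IACS. None of its 4 comparisons passed, with log2 values between 0.097 and 0.14. Its interval for OHT, from -0.0012 to 0.27, overlapped with that of Clpp, from 0.17 to 0.43. Within a library the ratio of Clpp to Clpx was 2.97 ± 0.19 in untreated cells and 3.36 ± 0.35 with OHT (SD, n = 3 each), and the libraries overlapped.

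The proteases of the inner membrane differed from each other in their values. Afg3l2 is the matrix-facing protease that also processes subunits of the mitochondrial ribosome. It was at 8.29, 8.25 and 8.88 RPKM in untreated cells, 9.86, 10.3 and 10.1 with OHT, 8.27, 7.93 and 8.16 with IACS and 9.47, 10.1 and 10.5 with OHT_IACS. As for Clpp, the libraries with OHT were all above those without. Its log2 fold change with OHT was 0.25 (SE 0.052; limma adjusted p = 0.00218) and under inhibitor 0.30 (SE 0.052; adjusted p = 0.000927), while the values for IACS were -0.060 (interval -0.17 to 0.052) in nonprimed and -0.013 (interval -0.13 to 0.098) in primed cells. The first of these intervals did not meet that of Trap1 for the same comparison (0.098 to 0.32), and a test of the difference between genes was not run.

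Yme1l1, which faces the intermembrane space and processes OPA1, was the flattest of the members. It was at 19.4, 18.6 and 17.3 RPKM in untreated cells, 20.2, 17.4 and 19.7 with OHT, 16.9, 17.6 and 17.8 with IACS and 16.5, 17.6 and 18.3 with OHT_IACS. All 4 groups overlapped, and the 4 log2 values lay between -0.13 and 0.049, none of them called (lowest limma adjusted p = 0.163). Without OHT replicate 2 the value for IACS in primed cells was -0.19 and passed (adjusted p = 0.0289). The ratio of Afg3l2 to Yme1l1 within a library was 0.46 ± 0.045 in untreated cells, 0.53 ± 0.054 with OHT, 0.47 ± 0.021 with IACS and 0.57 ± 0.001 with OHT_IACS (SD, n = 3 each). The untreated and OHT libraries overlapped in this ratio, the IACS and OHT_IACS libraries did not.

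The OHT calls of Lonp1, Clpp and Afg3l2 were those that held under each of the 23 alternative settings, without and with inhibitor. The reads of Clpp and Afg3l2 grew with the library total with slopes of 1.00 and 1.19, and the values with the total as a covariate were 0.27 for Clpp (limma adjusted p = 0.0179) and 0.26 for Afg3l2 (adjusted p = 0.0163). The OHT calls of Hspd1, Hspa9, Trap1 and Dnaja3 were lost with the library total as a covariate, where the values of the first 3 shrank as given above and that of Dnaja3 stayed at 0.16 (limma adjusted p = 0.099). They were also lost with only the OHT and untreated libraries in the fit, which left all 4 values as they were and moved the adjusted p to between 0.0514 for Dnaja3 and 0.0904 for Trap1. For the inhibitor in nonprimed cells the number of members called was 0 without IACS replicate 3, with adjusted p between 0.0537 for Trap1 and 0.0621 for Dnaja3, and 3 with the covariate. In primed cells it was 0 with only the OHT and OHT_IACS libraries in the fit, with adjusted p between 0.055 for Trap1 and 0.107 for Lonp1.

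Across all 12 libraries the members varied together to different degrees. Over the 45 pairs, Pearson's r of log2 RPKM had a median of 0.63, from 0.97 for Hspd1 with Hspe1 and 0.92 for Trap1 with Lonp1 down to -0.41 for Dnaja3 with Yme1l1. These points share their libraries and depth: r with the log2 library total was -0.97 for Hspd1, -0.95 for Hspe1 and -0.96 for Hspa9, against -0.73 for Lonp1 and -0.46 for Afg3l2. Among 6743 tested genes with a mean RPKM of at least 5, the gene most like Hspd1 was Ldha (r = 0.99), and that most like Hspe1 was Hist1h1b (0.99) and most like Hspa9 Lcp1 (0.99). The nearest to Trap1 was Psme2 (0.99), to Dnaja3 Iars (0.98), to Lonp1 Slc1a5 (0.98), to Afg3l2 Hs6st1 (0.98), to Clpp Creg1 (0.95), to Yme1l1 Ube2d3 (0.93) and to Clpx Pla2g4a (0.88), each over 12 libraries.

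Beyond the members, 24 partners and other mitochondrial chaperones and proteases were counted, all of which passed the filter. With OHT 11 rose (45.8%) and 2 fell (8.33%), where 18.2% of all genes were called in each direction, with a median of 0.14. The risers were Lactb (0.52), a filament-forming protein of the intermembrane space; Immp2l (0.44), a subunit of the inner membrane peptidase; the presequence peptidases Mipep (0.35), Pmpcb (0.35) and Pmpca (0.29); Dnlz (0.30) and Grpel1 (0.28), helpers of mitochondrial HSP70; Clpb (0.26), a disaggregase; the membrane scaffolds Phb2 (0.25) and Stoml2 (0.19); and Bcs1l (0.24), an assembly factor of complex III. Those that fell were Htra2 (-0.36), the serine protease of the intermembrane space, and Phb (-0.21), the partner of Phb2. Phb2 and Stoml2 are abundant, with 0.71 and 0.65 reads per base and slopes of reads on the library total of 0.46 and 0.68, and the part of depth in their values was not tested. Both subunits of the processing peptidase that trims imported chains were thus higher, while of the prohibitin pair one rose and the other fell.

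With IACS in nonprimed cells 9 of the 24 rose (37.5%) and 2 fell (8.33%), where 8.15% of all genes were called higher and 7.74% lower (median 0.16). Here the risers were Immp2l (0.62), Hscb (0.42), a J protein of iron-sulphur cluster assembly, Oma1 (0.42), the stress-activated protease of the inner membrane, Spg7 (0.34) and Afg3l1 (0.21), which pair with or resemble Afg3l2, Clpb (0.34), Pmpcb (0.24), the presequence degrader Pitrm1 (0.23) and Lactb (0.16). Immp1l (-0.51), the partner of Immp2l in its peptidase, and Dnlz (-0.27) fell. Immp1l and Immp2l rest on few reads, from 95 to 175 and from 62 to 159 over the 12 libraries. The slope of the reads of Immp1l on the library total was 0.24. In primed cells 6 rose (Immp2l 0.68, Spg7 0.56, Oma1 0.50, Clpb 0.47, Afg3l1 0.29 and Pitrm1 0.18) and the same Dnlz (-0.34) and Immp1l (-0.37) fell, with a median of -0.031. These are 25% and 8.33% of the list, where 11.9% of all genes were called higher and 11.8% lower. The OHT and OHT_IACS libraries of Immp1l overlapped. For Immp2l, OHT_IACS replicate 2 stood at 9.83 RPKM, above OHT_IACS replicates 1 and 3 at 7.08 and 5.92. Afg3l2 itself was not called with the inhibitor, whereas Spg7, its partner in the m-AAA protease, was at 5.89, 5.05 and 5.46 RPKM in untreated cells and at 6.95, 7.70 and 6.26 with IACS. In the response to OHT under inhibitor 6 rose (Immp2l 0.50, Lactb 0.41, Clpb 0.39, Mipep 0.27, Dnlz 0.23 and Pmpca 0.18) and 3 fell (Hscb -0.34, Htra2 -0.25 and Phb -0.25), with a median of 0.020. These are 25% and 12.5%, where 12.3% of all genes were called higher and 14.2% lower. None of the 24 was called in the interaction by limma, and 3 had an unadjusted p under 0.05, where 12.7% of all genes did.

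Of 15 regulators of the stress response, the ones that moved most were transcription factors in the response to the inhibitor. Atf5, named as the factor behind the mammalian mitochondrial response, was at 3.05, 3.56 and 2.95 RPKM in untreated cells and at 10.6, 11.8 and 10.4 with IACS, a log2 fold change of 1.75 (limma adjusted p = 2.05e-06). It rose by 1.98 in primed cells and fell by 0.40 with OHT alone (limma adjusted p = 0.0288). The OHT libraries were at 1.89, 2.99 and 2.37 RPKM on 38, 85 and 52 reads, and replicate 2 fell within the untreated range. The slope of Atf5 reads on the library total was 2.19, and the part of depth in the fall was not tested. Ddit3, or CHOP, rose by 1.17 in nonprimed and by 0.76 in primed cells, and by 0.22 with OHT. The mRNA of Atf4 had values of 0.22 with OHT (limma adjusted p = 0.0596) and 0.24 with IACS (adjusted p = 0.0743). Atf4 is abundant, with 0.98 reads per base and a slope of its reads on the library total of 0.39. The part of depth in its values was not tested. Members of the chaperone and protease group called with the inhibitor changed by at most 0.21. Counted over the list, 3 rose (20%) and 2 fell (13.3%) with OHT (median 0.037), near or under the 18.2% of all genes called in each direction, and besides Atf5 and Ddit3 the largest change was that of Eif2ak2, or PKR (-0.50). With IACS 4 rose (26.7%, against 8.15% of all genes) and none fell in nonprimed cells (median 0.028), the third largest being Ubl5 (0.22), a cofactor of the response in worms. In primed cells 4 rose (26.7%, against 11.9% of all genes) and 2 fell (13.3%, against 11.8%; median 0.057), with Hsf2 (-0.47), a heat shock factor, after Atf5 and Ddit3. With OHT under inhibitor Cebpb (0.31), a C/EBP factor, rose and Eif2ak2 (-0.49) and Sirt3 (-0.42), the mitochondrial deacetylase, fell (median -0.059), that is 6.67% higher and 13.3% lower, where 12.3% and 14.2% of all genes were. No regulator was called in the interaction, and 3 of the 15 had an unadjusted p under 0.05 (limma), where 12.7% of all genes did.

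Chaperones of the cytosol and the ER were counted in the same way. Of the 24 cytosolic chaperones listed 20 passed the filter, and Hspa1a, Hspa1b, Hspb1 and Bag3, the inducible genes of the heat shock response, did not. With OHT 5 of the 20 rose (25%, against 18.2% of all genes) and none fell (median 0.20), led by Hsph1 (0.38), an HSP70 exchange factor, Cct8 (0.30), of the cytosolic chaperonin, and Dnaja2 (0.28), a J protein. Cct8 and Stip1, another of the 5, held 0.69 and 0.68 reads per base with slopes on the library total of 0.29 and 0.46, and the part of depth in their values was not tested. Hspa8, Hsp90aa1, Hsp90ab1, Ahsa1, Cct2, Cct3, Cct4, Cct5 and Cct6a also held at least 0.5 reads per base. The 764 genes at this level had a median of 0.15 with OHT, and the part of depth in the median of the list was not tested. With IACS none rose and 3 fell (15%, against 7.74% of all genes), Hsph1 (-0.26), Hspa14 (-0.24) and Dnajb1 (-0.22), although the median of the list was 0.061, and in primed cells 5 fell (25%, against 11.8%), the same 3 with the largest changes (-0.44, -0.32 and -0.26), and none rose. With OHT under inhibitor limma called none of the 20, and 2 had an unadjusted p under 0.05, where 3681 of all 9745 genes tested did. Of 14 ER chaperones 4 rose with OHT (28.6%, against 18.2% of all genes), led by Hsp90b1 (0.24), Pdia6 (0.22) and Pdia3 (0.21), and Dnajc3 fell (-0.18; 7.14% of the list, against 18.2%). Hsp90b1 held 0.65 reads per base with a slope of 0.44, and the part of depth in its value was not tested either. With IACS 3 fell (21.4%, against 7.74% of all genes), Sdf2l1 (-0.39), Creld2 (-0.27) and Dnajc3 (-0.21), and none rose, and in primed cells 7 fell (50%, against 11.8%), led by Creld2 (-0.55), Sdf2l1 (-0.38) and Dnajc3 (-0.27). With OHT under inhibitor Dnajc3 (-0.25) and Creld2 (-0.21) fell (14.3%, against 14.2% of all genes). The medians of the ER list were 0.11 with OHT, -0.067 with IACS and -0.20 with the inhibitor in primed cells, against 0.24, 0.093 and 0.028 for the 10 members. Genes with at least 0.5 reads per base, among them Hspa5, Hsp90b1, Calr and Canx, had medians of 0.15, 0.059 and -0.039. The part of depth in the medians of the lists was not tested.

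**Figure D4:**
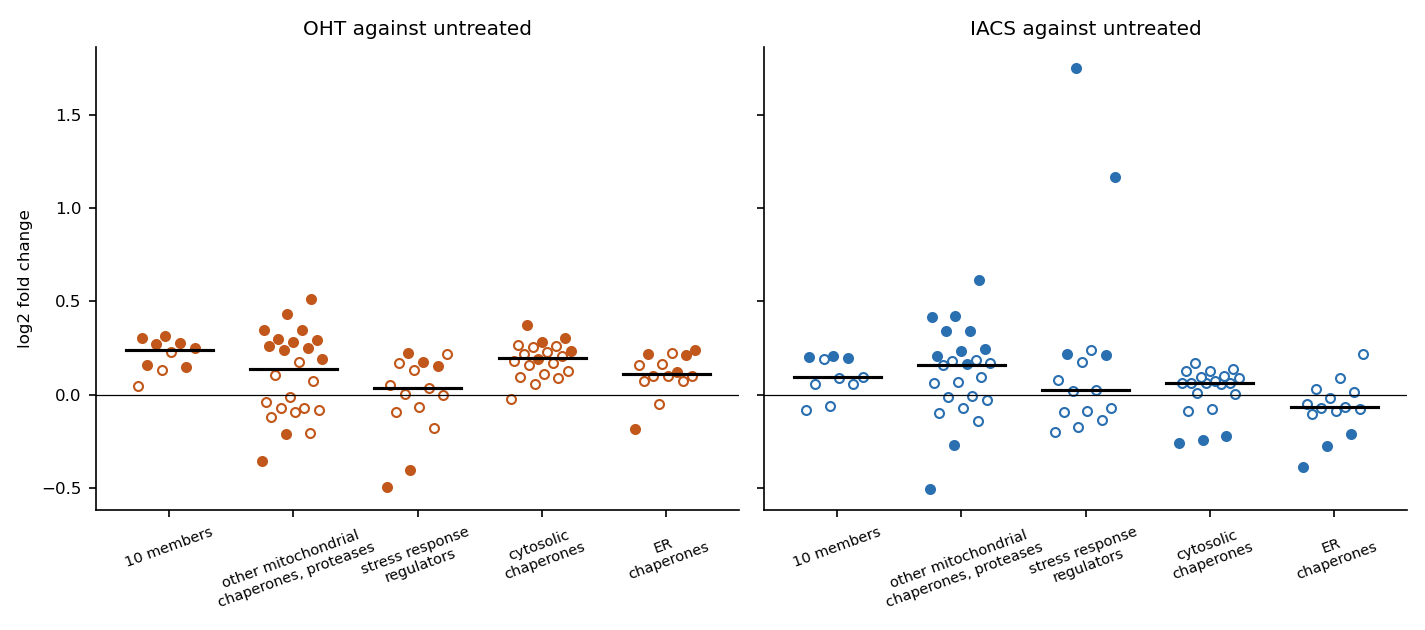
Log2 fold changes (vertical axis) of the 10 members and of 4 lists of related genes with OHT (left) and with IACS-010759 in nonprimed cells (right). Each point is a gene, filled where limma called it, and the line is the median of the list; the 2 highest points on the right are Atf5 and Ddit3, and the called ER and cytosolic chaperones on that side are all below 0.

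The mitochondrial chaperones were also set against their nearest relatives in other compartments within each library, with no test. The ratio of Hspa9 to Hspa5, the HSP70 of the ER, was 0.77, 0.74 and 0.73 in untreated cells, 0.75, 0.78 and 0.79 with OHT, 0.90, 0.89 and 0.89 with IACS and 0.92, 0.94 and 0.97 with OHT_IACS. The 6 libraries with inhibitor were all above the 6 without it. Both genes are abundant, with 0.89 and 1.06 reads per base, and their reads followed the library total with slopes of 0.40 and 0.38. Against Hspa8, the HSP70 of the cytosol, the ratio of Hspa9 was 1.30 ± 0.014 in untreated cells, 1.34 ± 0.047 with OHT, 1.42 ± 0.079 with IACS and 1.48 ± 0.020 with OHT_IACS (SD, n = 3 each), and IACS replicate 3 (1.32) fell within the range of the OHT libraries.

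The ratio of Trap1 to Hsp90b1, its relative in the ER, was 0.64, 0.66 and 0.67 in untreated cells, 0.60, 0.65 and 0.60 with OHT, 0.79, 0.79 and 0.71 with IACS and 0.80, 0.83 and 0.84 with OHT_IACS. Again the libraries with inhibitor were above all those without it. Against the cytosolic Hsp90ab1, the ratio ran from 0.25 to 0.33 over the 12 libraries and the groups overlapped, with OHT replicates 1 and 3 and IACS replicate 3 the lowest. Hsp90ab1 held 1.56 reads per base and its reads hardly followed the library total (slope 0.10), and these are the 3 shallowest libraries. The ratio of Hspd1 to Tcp1, a subunit of the cytosolic chaperonin, was 2.32, 2.36 and 2.27 in untreated cells, 2.68, 2.58 and 2.64 with OHT, 2.36, 2.28 and 2.46 with IACS and 2.65, 2.61 and 2.59 with OHT_IACS. Here the 6 libraries with OHT were above the 6 without, OHT replicate 2 included. The slope of the reads of Tcp1 on the library total was 0.37, against 0.21 for Hspd1.

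**Figure D5:**
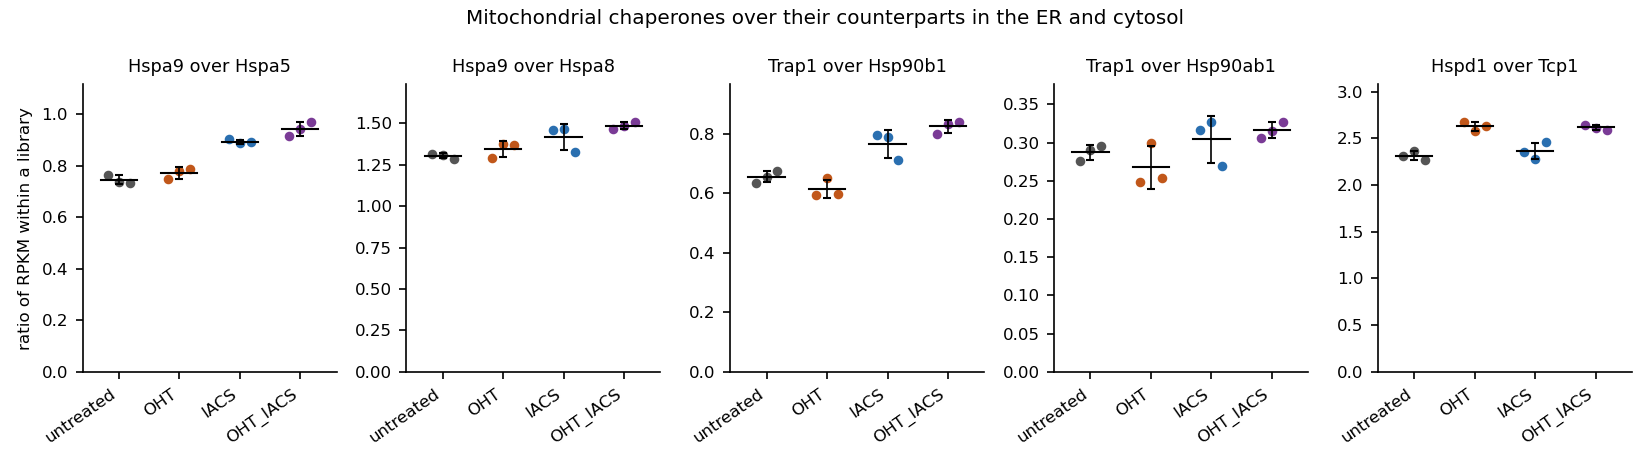
Ratio of RPKM within a library (vertical axes, from 0) of Hspa9, Trap1 and Hspd1 to their relatives in the ER or cytosol, in 4 groups of 3 libraries (points), with the mean and SD. Hspa9 over Hspa5 is between 0.73 and 0.79 without inhibitor and between 0.89 and 0.97 with it, and Hspd1 over Tcp1 is higher in all libraries with OHT.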

How the data were processed

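Total RNA of the 12 libraries was sequenced after removal of ribosomal RNA with a stranded kit. The authors deposited RPKM per gene and library. Beside these the table holds, for 3 comparisons, the log2 fold changes of the authors and their adjusted p-values (DESeq2), of which none was used. The submitters' processing notes name TopHat2 2.0.8, SAMtools, featureCounts 1.4.5-p1 and the build mm9. The annotation and strand setting are not given in the sources used here. The replicates are biological per the study's methods.

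RPKM are not counts, so limma 3.58.1 (R 4.3.3) was run on log2(RPKM + 0.1), a scale that makes changes of low genes look smaller. Each library was first divided by the median, over genes, of its ratio to the geometric mean. A gene entered the test if 3 or more libraries reached an RPKM of 1 (9745 of 21671 genes). The 4 groups shared a fit with a mean-variance trend, and p-values were two-sided and adjusted by Benjamini-Hochberg over all genes tested within each of 5 comparisons. Called genes have an adjusted p under 0.05, and intervals are the 95% intervals of this fit. Reads, gene lengths and totals were read off the steps between RPKM values, and 15448 of the 15451 genes above 0 came out whole in every library (tolerance 0.01 reads). The chi-square per gene between replicates ran from 1.07 to 2.48 over 12 pairs, where sampling noise alone gives 1. It was taken over tested genes under 0.2 reads per base with at least 10 reads in the pair. Among the members, Clpx and Afg3l2 are under this limit (0.14 and 0.12 reads per base) and the others above it.

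The members and lists were chosen with earlier results of these data known. Named were all members, all called genes of the list of partners, the 3 largest called changes per comparison in the other lists, fixed counterparts, and the gene most like each member. In a simulation of OHT against untreated with 9745 genes, limma called 82 of 100 genes given a log2 change of 0.5, 97 of 100 given 1, and 13 of 9545 left alone. Its noise was drawn separately for each gene and library, which leaves out variation shared with depth. The changes of the members were all smaller than 0.5, so these rates do not carry over to their calls. Alternatives were other pseudocounts, filters and scalings, a block, only the compared groups, no trend, the library total as a covariate, limma voom on the reads, and leaving out each library. Promoter windows are from RefSeq (GRCm38.p6), with 250 bases before and 50 after each start, and gene positions from GENCODE M21 (GRCm38). Other software was python 3.11.15 with matplotlib 3.10.9, pandas 2.3.3 and numpy 2.4.6.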

Additional observations from a re-analysis of the deposited data

Results flagged for a closer look

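Ddit3, the transcription factor CHOP, was higher in every OHT library than in every untreated one, and lower in every OHT_IACS library than in every IACS one. It was at 7.58, 7.67 and 7.24 RPKM in untreated cells and 8.18, 9.98 and 8.23 with OHT, but at 17.2, 16.4 and 17.3 with IACS and 14.6, 15.2 and 14.9 with OHT_IACS. The interaction was -0.41 on the log2 scale (limma unadjusted p = 0.000785), which did not pass the adjustment over all genes (adjusted p = 0.127). The rise with OHT was called (0.22, limma adjusted p = 0.0189) and the value under inhibitor was not (-0.18, adjusted p = 0.0571), and the gene is singled out here after its values were seen.

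Xpnpep3, a mitochondrial aminopeptidase of the list of partners, moved in opposite directions with the inhibitor. It was at 4.57, 5.08 and 4.57 RPKM in untreated cells and 5.23, 5.44 and 5.38 with IACS, and at 5.06, 5.32 and 5.73 with OHT and 4.99, 4.43 and 4.99 with OHT_IACS. The groups compared did not overlap in either case, and the interaction was -0.33 (limma unadjusted p = 0.00631, adjusted p = 0.217). Neither response was called on its own, and the gene is named here because it met this criterion, after its values were seen.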

How the results depend on the processing

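Each result was recomputed under 11 other settings and with each of 12 libraries left out. Of 1150 values of single members, 1042 kept direction and side of the threshold, 55 lost and 14 gained significance, and 39 changed sign. Once the log2 library total entered as a covariate, members called with OHT went from 7 to 3, their median from 0.24 to 0.065 and genes called from 3546 to 2351. Members called went from 4 to 6 with OHT under inhibitor, gaining Hspd1 (0.066, limma adjusted p = 0.0407) and Hspa9 (0.065, adjusted p = 0.0472), and from 3 to 4 with the inhibitor in primed cells, gaining Hspa9 (0.069, adjusted p = 0.034). Signs changed there for Hspe1 (-0.033) and Yme1l1 (-0.064) with OHT, Hspd1 (-0.059) and Hspe1 (-0.091) with IACS, Yme1l1 (-0.034) with OHT under inhibitor, and in the interaction for Hspd1 (0.0097), Hspe1 (0.046), Lonp1 (0.0087) and Yme1l1 (0.030). Quantile normalization gave a median of 0.15 with OHT, and values of -0.00036 for Yme1l1 with OHT under inhibitor and 0.0034 for Lonp1 in the interaction. Gained there were Hspa9 with IACS (0.13, limma adjusted p = 0.00516) and Hspd1 with OHT under inhibitor (0.092, adjusted p = 0.0127). With RPKM as deposited, Yme1l1 was at -0.0034 with OHT under inhibitor, and Clpx at -0.016 and Trap1 at -0.025 in the interaction. With only the groups compared in the fit, 3 members were called with OHT and 0 with the inhibitor in primed cells. Genes called in the interaction, 14 in the reported fit, numbered 7 without a filter, 5 with RPKM as deposited, 34 with quantile normalization, 5 with the covariate and 25 with voom. The cause was not tested.

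With each library left out in turn, members called higher ran from 3 to 7 with OHT, 0 to 4 with IACS, 1 to 3 with IACS in primed cells and 3 to 5 with OHT under inhibitor. The fewest came without untreated replicate 2, IACS replicate 3, OHT_IACS replicate 1 and untreated replicate 1, respectively (ties included). Members called lower were 0 throughout, except for 1 (Yme1l1) with IACS in primed cells without OHT replicate 2. Genes called ran from 2650 to 4123, 951 to 1809, 1524 to 2951 and 1880 to 2840, and in the interaction from 3 (without OHT replicate 3) to 130 (without OHT replicate 2). Medians of the members ran from 0.21 to 0.27, 0.072 to 0.13, -0.012 to 0.088 and 0.13 to 0.18, and in the interaction from -0.074 to -0.017. Values that changed sign, none of them called, ran with IACS from -0.0033 to 0.15 for Hspd1 and from -0.013 to 0.11 for Hspe1. In primed cells they ran from -0.20 to 0.020 for Hspe1, -0.049 to 0.099 for Hspa9, -0.031 to 0.077 for Clpp and -0.048 to 0.026 for Afg3l2, and with OHT under inhibitor from -0.031 to 0.042 for Yme1l1. In the interaction they ran from -0.088 to 0.021 for Clpp, -0.035 to 0.055 for Clpx, -0.042 to 0.035 for Trap1 and -0.074 to 0.018 for Dnaja3.

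With the replicate number as a block the members called were 7, 3, 3 and 4 as before, and 7 genes were called in the interaction. Correlations of deviations between libraries of the same number ran from -0.17 to 0.10 over 18 pairs, 1 of them over 0.1. Over 36 pairs with other numbers they ran from -0.18 to 0.17, and 1 of 12 libraries correlated best with its own number. The check showed no sign of pairing by number, which is short of showing that there is none. With 3 libraries a group and reads on Hspd1, Hspe1 and Hspa9 that hardly followed the total, depth limits what can be said of these 3 genes.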
